A study of Mus musculus with 26 samples.

Results

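The genes described here encode the proteins of the mitochondrial ribosome, in haematopoietic stem cells (HSCs) of a mouse model of myeloproliferative neoplasm. They were chosen by symbol alone: rows of the expression table whose symbol starts with Mrpl (large subunit) or Mrps (small subunit) followed by a digit, with an RPKM of at least 1 in at least 5 of 26 libraries. RPKM scales the reads of a gene by its length and by the size of the library. All 76 rows with such a symbol passed, 47 of the large and 29 of the small subunit, out of 12116 genes that passed the same filter and 23416 in the table.

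The libraries were made with the Smart-Seq2 protocol from HSCs purified by flow cytometry from mouse bone marrow. The labels give 4 genotypes. There were 5 control libraries and 7 of each mutant genotype, namely JAK2V617F, loss of Ezh2, and the combination of both, called the double mutant below. JAK2V617F is an activating change in the Jak2 kinase and a common driver of myeloproliferative neoplasms. Ezh2 is the enzyme of the Polycomb machinery that methylates lysine 27 of histone H3. The label of the double mutant spells the mutation JAK2V17F, which was read as JAK2V617F. The sources used here give no alleles, Cre drivers, strain, age or number of cells per library. Nothing in the labels says that the libraries of a group came from separate mice, so each p-value measures only the spread between these libraries. The sample titles come in 2 styles, with the number before the group code (15 libraries) or after it (11 libraries). No source used here says what the styles stand for. The double mutant has only number-first titles and the control has 1 number-last library, so the style was fitted beside the genotype in every comparison.

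The mitochondrial ribosome translates the messages of the mitochondrial genome, which encode core subunits of the respiratory chain and of ATP synthase. Its RNAs come from the mitochondrion, but all of its proteins are encoded in the nucleus, made in the cytosol and imported. Some of these proteins have counterparts in bacterial ribosomes and others are specific to mitochondria. HSCs at rest are known for low mitochondrial activity, which rises when they differentiate.

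Ezh2 RNA was at 23.7 ± 10.4 RPKM in control (SD, n = 5), 17.6 ± 8.995 in Ezh2 loss and 17.4 ± 9.07 in the double mutant (n = 7 each), differences smaller than the SD, and in JAK2V617F it was at 27.1 ± 8.21. Which part of Ezh2 was deleted is not stated, so these levels of the whole gene do not check the labels.

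Library totals recovered from the RPKM values ran from 7823117 to 29207920 reads (7.82 to 29.2 M reads), with a mean of 17.5 M reads per control library and 21.1 M reads per double-mutant library. JAK2V617F had 13.5 M reads and Ezh2 loss 14.03 M reads on average. Each of the 14 HSC markers examined was detected in every group, and Kit, Ly6a, Procr and Slamf1 were at 1 RPKM or more in 26 of 26 libraries. Hoxb5, Tek and Ctnnal1 reached 1 RPKM in 25 libraries each and Fgd5 in 23, and the lowest value of Ctnnal1 and Fgd5 was 0. Transcripts of several other blood cells differed between groups. The summed RPKM of 10 neutrophil markers ran from 43.5 to 388.3 in control (8 markers above 0, Lcn2 and Retnlg at 0), from 72.9 to 17660 in JAK2V617F (8 above 0, Elane and Mpo at 0), from 404 to 38180 in Ezh2 loss and from 47.01 to 52100 in double-mutant libraries (10 of 10 above 0 in each). The summed RPKM of 9 erythroid markers reached 22.3 in control, 26.5 in JAK2V617F and 42.2 in the double mutant, and ran from 29.7 to 6084 in Ezh2 loss. Hba-a1, Hba-a2 and Hbb-b2 were at 0 in all 26 libraries, also where the erythroid sum was 6084. No source used here says how reads that fit more than 1 gene were counted, so these 0 values need not mean absence. Of 10 lymphoid markers, 7 were at 0 throughout the controls, 8 throughout JAK2V617F and 4 in each of the other groups, and the sums stayed between 65.1 and 696.9. Of 8 macrophage and monocyte markers, 6 to 8 were above 0 per group, with sums up to 64.4, 94.5, 435.6 and 1090 in control, JAK2V617F, Ezh2 loss and the double mutant. Of 8 megakaryocyte markers 7 were above 0 in each group, with median sums of 300.6, 322.3, 233.6 and 305.5 in the same order. The part of these cells in the results on genotype was not tested. A fit with a neutrophil covariate called 0 of the 76 genes in every genotype comparison, as did the fit without it, so this count does not show that part.

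The mitochondrial ribosomal protein genes were expressed broadly and evenly. None was at 0 in any library, against 56% of all tested genes that were above 0 in every library. In 75 of 76 the RPKM was at least 1 throughout, a share of 98.7%, compared with 44.1% of tested genes. Mean RPKM over 26 libraries ranged from 13.4 to 559, with a median of 81.1 for the large subunit and 82.4 for the small subunit, and the median over all tested genes was 11.2. The coefficient of variation over libraries had a median of 31.98% for the 76 genes and 63.5% for all tested genes, but genes of low RPKM are counted with more sampling error. Read support was high, with a median of 1620 reads per gene and library. The exception was Mrps27, which was chosen after its values were seen: the single value under 10 reads among 1976 was its 1 read (0.069 RPKM) in Ezh2 loss replicate 5. In the other Ezh2 loss libraries the highest was 67.8 RPKM. Its ranges in the other groups were 26.02 to 69.9 in control, 18.3 to 42.4 in JAK2V617F and 15.3 to 51.4 in the double mutant.

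Mrpl33 was the most abundant gene of the large subunit at 559 ± 113.6 RPKM (mean ± SD, n = 26), followed by Mrpl42 at 368 ± 86.8 and Mrpl52 at 281.1 ± 89.1. Mrpl42 and Mrpl52 encode proteins without a bacterial counterpart. The lowest large-subunit genes were Mrpl1 at 15.6 ± 5.85, whose product is part of the stalk by which transfer RNA leaves, Mrpl19 at 16.4 ± 4.99 and Mrpl15 at 29.8 ± 7.15. In the small subunit Mrps18c (335.5 ± 74.7), Mrps16 (242.6 ± 64.2) and Mrps21 (223.6 ± 54.8) were highest, and all 3 have counterparts in bacteria. Mrps36, Mrps25 and Mrps5 were lowest, at 13.4 ± 7.64, 16.5 ± 5.50 and 24.9 ± 10.9. The product of Mrps36 is also known as a subunit of the 2-oxoglutarate dehydrogenase complex. Neighbours in this order mostly differed by less than their SD: Mrpl33 stood above Mrpl42 by more than either SD, whereas Mrpl1 and Mrpl19, or Mrps16 and Mrps21, did not.

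**Figure D1:**
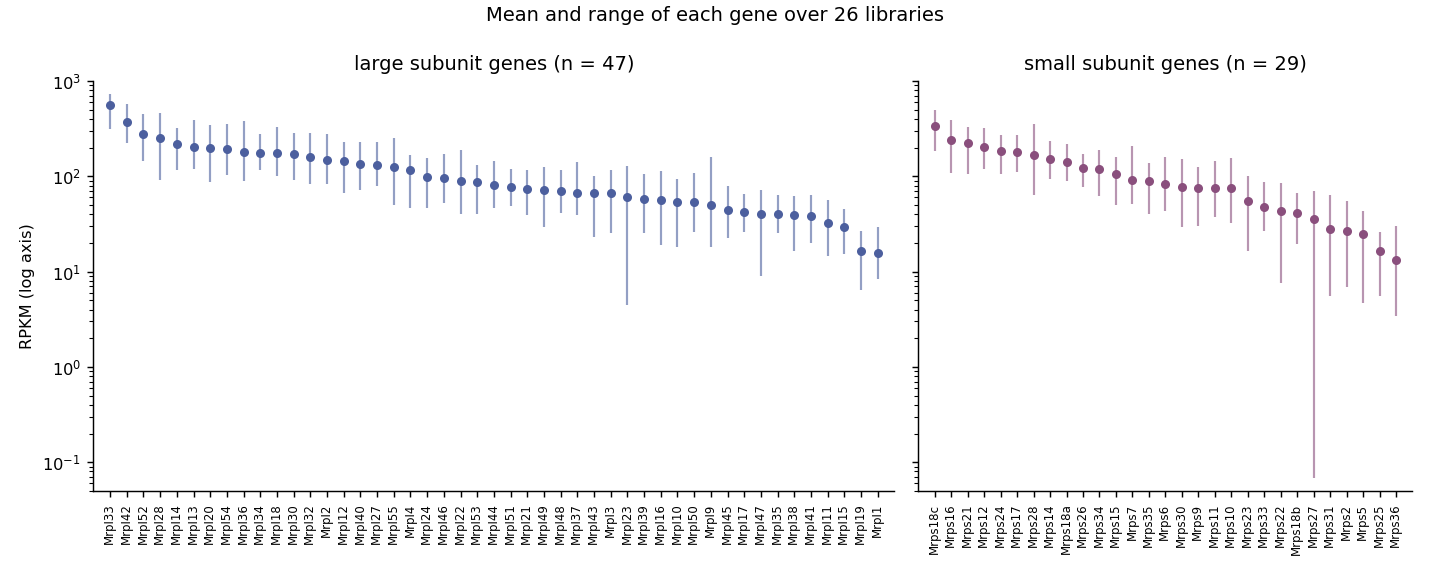
RPKM of each of the 47 large-subunit and 29 small-subunit genes, on a log axis. Points are means over 26 libraries and lines run from the lowest to the highest library; Mrps27 reaches down to 0.069 and Mrpl23 spans from 4.49 to 127.

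Genes with a bacterial counterpart had the higher median level in each subunit, with wide overlap and no test made. In the large subunit the median of the means was 107.6 RPKM for 30 such genes and 72.5 for 17 mitochondria-specific genes, with quartiles of 50.7 to 173.7 and 57.5 to 96.4. In the small subunit it was 128.2 for 16 genes with a counterpart and 51.6 for 12 mitochondria-specific ones by symbol, with quartiles of 75.95 to 188.3 and 39.9 to 96.6. Mrps36 was placed in neither set. These 12 include Mrps30 and Mrps18a, whose proteins sit in the large subunit by structure despite their symbols. Of the 7 mitoribosome proteins that carry other symbols (such as Dap3 and Chchd1), all were above 0 in every library, with a median of 68.4 RPKM. The machinery around the ribosome was lower: 12 mitochondrial translation factors had a median of 19.7, 25 assembly and rRNA modification genes 19.1, and 20 mitochondrial aminoacyl-tRNA synthesis genes 14.2 RPKM.

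The 76 genes lie on 17 chromosomes, and many share their start with a neighbour. In 24 of 76 (31.6%) a protein-coding gene on the opposite strand starts within 500 bases (GENCODE M21, GRCm38), compared with 1581 of 10825 tested protein-coding genes (14.6%). In 1 case both partners are members: Mrpl46 and Mrps11 start 412 bases apart on opposite strands, and their exons overlap by 173 bases. Promoter windows from 250 bases before to 50 after the start were available for 67 members from RefSeq (GRCm38.p6). Short motifs of 3 factors known to regulate nuclear genes for mitochondria were counted on both strands. The NRF1 motif GCATGCGC was in 8 of 67 windows (11.9%), against 6.35% of 8983 tested genes with a window. By subunit it was in 7 of 41 large-subunit windows (17.1%) and 1 of 26 small-subunit windows (3.85%). The ETS motif CCGGAAG was in 24 (35.8% against 20.7%), and the YY1 motif AAGATGG in 13 (19.4% against 8.54%). At least 1 of the 3 was in 36 windows (53.7% against 31.7%). A match is a description of the letters and not a binding site.

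Exon-free stretches (GRCm38.p6) that end within 30 bases before the RefSeq start of 5 members are given 5′ to 3′, with motif matches in capitals. Mrpl22, Mrpl10 and Mrpl52 are shown as expressed members that hold the motifs, and no matches overlap in them. Mrpl23 and Mrpl49 are shown because they differed most between title styles in the 2 directions in the large subunit, and the stretches shown hold none of the 3 motifs. The whole window of Mrpl49 holds 2 YY1 matches outside its stretch. In GENCODE M21 Mrpl23 starts at 142532686, ahead of its RefSeq start, so its stretch lies inside the gene in that annotation.
Mrpl22 (chr11:58171501-58171660, plus strand; ETS then NRF1, the latter read from the other strand): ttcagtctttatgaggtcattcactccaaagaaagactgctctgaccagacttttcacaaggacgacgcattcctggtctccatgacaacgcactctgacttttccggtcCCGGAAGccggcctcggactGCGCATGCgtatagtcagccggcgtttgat
Mrpl10 (chr11:97041408-97041559, plus strand; NRF1): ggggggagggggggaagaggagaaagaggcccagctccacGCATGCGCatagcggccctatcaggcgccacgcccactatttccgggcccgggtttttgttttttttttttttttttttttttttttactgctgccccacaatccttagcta
Mrpl52 (chr14:54426749-54426908, plus strand; YY1 then ETS, the latter read from the other strand): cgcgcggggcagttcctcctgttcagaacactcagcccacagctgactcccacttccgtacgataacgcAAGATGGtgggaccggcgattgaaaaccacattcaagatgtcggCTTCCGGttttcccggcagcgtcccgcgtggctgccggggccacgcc
Mrpl23 (chr7:142532852-142533011, plus strand): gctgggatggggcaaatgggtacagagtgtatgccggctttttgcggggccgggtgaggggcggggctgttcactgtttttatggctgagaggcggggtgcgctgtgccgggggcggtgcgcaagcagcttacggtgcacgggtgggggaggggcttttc
Mrpl49 (chr19:6057786-6057843, minus strand): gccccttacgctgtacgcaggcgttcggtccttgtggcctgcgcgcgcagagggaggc

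The study asks how JAK2V617F, Ezh2 loss and their combination change HSCs, and the comparisons between the 4 genotypes follow from that design. No gene of the 76 differed between any of them at an adjusted p under 0.05. The test was limma on log2(RPKM + 1) with title style fitted, two-sided and adjusted by Benjamini-Hochberg over 12116 genes. In the F test over the 4 groups 4 of the 76 had an unadjusted p under 0.05 and 0 passed after adjustment. Over all tested genes 8.01% had an unadjusted p under 0.05 and 0.099% passed, so the share of members, which is 4 of 76, was no higher than the background. A count-based fit (voom in limma) on whole reads recovered from the RPKM values also called 0 of the 76 in every genotype comparison. These are bulk libraries, in which fewer cells of a type and less RNA per cell cannot be told apart.

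The summed level of each subunit shows how far the libraries of a genotype spread. The 76 genes took up between 0.665% and 1.07% of the reads of a library. Summed RPKM of the large subunit was 5631 ± 637.5 in control (SD, n = 5) and 5079 ± 845.7 in the double mutant (n = 7). JAK2V617F was at 5870 ± 648 and Ezh2 loss at 5675 ± 795.4 (n = 7 each). For the small subunit the sum was 3309 ± 267.5 in control, 2725 ± 298 in the double mutant, 3295 ± 282.4 in JAK2V617F and 3045 ± 444.9 in Ezh2 loss. The double mutant had the lowest mean for both subunits, but the ranges overlapped: its small-subunit sums ran from 2349 to 3276, and those of the control from 2899 to 3599. Among number-first libraries alone the small-subunit sum was 3236 ± 245.6 in control (n = 4) and 2725 ± 298 in the double mutant (n = 7). The ratio of large to small was lowest in control at 1.70 ± 0.083, followed by JAK2V617F at 1.78 ± 0.097. The double mutant was at 1.86 ± 0.14 and Ezh2 loss at 1.87 ± 0.099. Neighbours in this order differed by less than their SD, but the double mutant and Ezh2 loss each lay above control by more than either SD. The ranges overlapped and no test was made. They were 1.60 to 1.81 in control, 1.67 to 2.08 in the double mutant and 1.68 to 1.965 in Ezh2 loss.

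**Figure D2:**
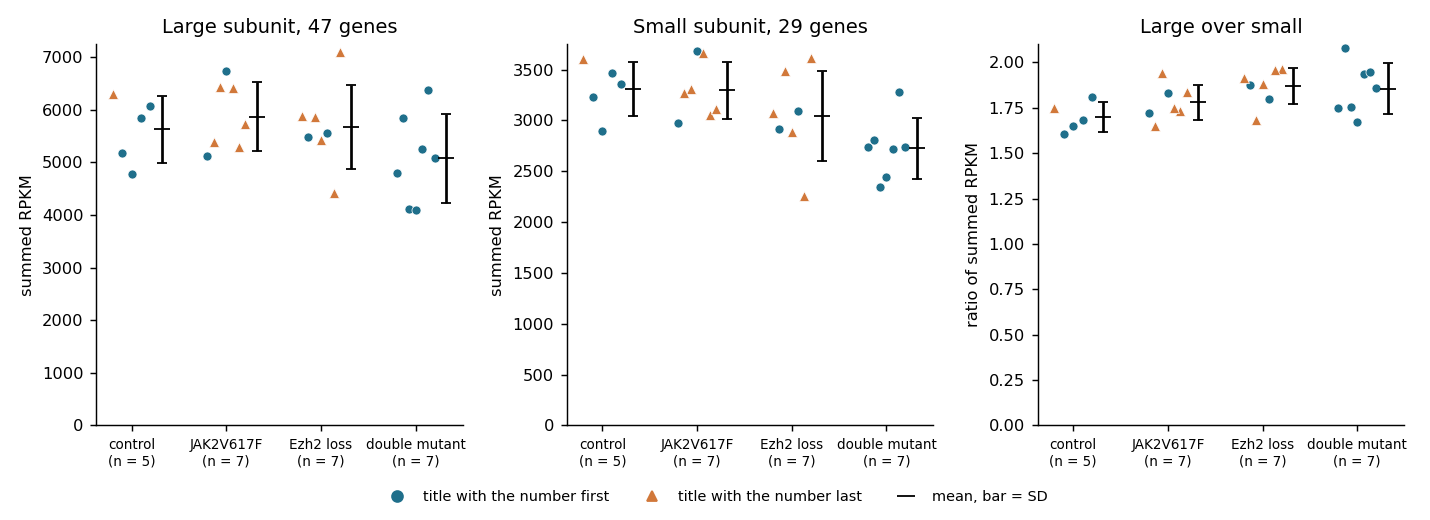
Summed RPKM of the 47 large-subunit genes (left) and the 29 small-subunit genes (middle) and their ratio (right) in each library, by genotype; circles have number-first and triangles number-last titles, and bars show mean and SD. The double mutant has the lowest means (5079 and 2725), with overlap between all groups.

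With JAK2V617F alone the levels of the 76 genes lay on both sides of control. The median difference was 0.01 (log2) over the large and 0.03 over the small subunit, next to -0.02 over all tested genes, and 41 of 76 genes were higher. By limma 0 passed after adjustment (background 0%) and 1 had an unadjusted p under 0.05 (background 4.14%). That gene was Mrps30, which encodes a mitochondria-specific protein and had already been singled out in earlier results on these data. Its RPKM was 99.99, 153.5, 103.1, 114.9 and 77.3 in control replicates 1 to 5. In JAK2V617F it was 75.2, 33.0, 57.5, 40.4, 40.8, 42.5 and 39.1 in replicates 1 to 7. Every JAK2V617F library was thus below every control, which held for this gene of the 76 and for 0.264% of tested genes in either direction. The difference was -0.95 (SE 0.27), which did not pass over all genes (adjusted p = 0.98, and 0.25 to 1 over 43 alternative fits, limma). Within the number-last titles the control was at 77.3 against 33.0 to 42.5, and within the number-first titles 57.5 and 75.2 compared with a lowest control value of 99.99. Exons of Mrps30 (chr13:118378381-118387252) overlap those of B430218F22Rik on the other strand by 601 bases, and no source used here says whether the counting used strand.

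The other members with the smallest p against control in JAK2V617F did not pass. Mrps35, a mitochondria-specific small-subunit gene, was at 68.1 ± 19.96 in JAK2V617F and 105.4 ± 30.8 in control (-0.60, SE 0.30, limma adjusted p = 0.999). Mrpl55 was at 151.9 ± 56.4 against 100.7 ± 40.7 (0.53, SE 0.30). For Mrpl13 the means were 222.4 ± 73.1 and 200.9 ± 62.7 (0.39, SE 0.23), and 1 JAK2V617F library at 386.5 stood far above the other 6 (182.8 to 211.4). Mrpl15, the other gene given in every library, showed no separation: 36.99, 28.4, 28.6, 34.6 and 37.9 in control and 35.6, 45.2, 25.4, 36.2, 39.0, 38.6 and 23.1 in JAK2V617F. Its difference was -0.11 (SE 0.26, adjusted p = 0.999).

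With Ezh2 loss the small-subunit genes lay mostly below control and the large-subunit genes on both sides. The medians were -0.18 over the small subunit (21 of 29 lower) and -0.02 over the large subunit (25 of 47 lower), next to -0.03 over all genes. Without control replicate 5, the only number-last control, the small-subunit median was -0.08 and that of the large subunit 0.04. None passed (background 0%), and 4 had an unadjusted p under 0.05, all lower, at a background of 6.07%. Those were Mrps34, Mrps11, Mrps22 and Mrpl49, named here from the small and large subunit. Mrps34 was at 98.8 ± 25.9 in Ezh2 loss and 115.2 ± 33.8 in control (-0.49, SE 0.19, limma adjusted p = 0.74). Mrps11 was at 72.7 ± 27.4 against 83.5 ± 26.2 (-0.64, SE 0.26), and Mrpl49 at 65.8 ± 29.4 against 66.3 ± 22.5 (-0.52, SE 0.23). The plain means of Mrpl49 were nearly equal, and the difference appears only after the title style is fitted, since 5 of 7 Ezh2 loss libraries have the style in which this gene is higher. Mrps22 ran from 7.68 to 73.9 in Ezh2 loss (median 43.9) and from 34.8 to 55.3 in control. Mrpl42 (333 ± 92.5 against 418.4 ± 107.1) and Mrpl15 did not reach an unadjusted p under 0.05. The Ezh2 loss values of Mrpl15 were 35.4, 33.6, 15.5, 28.7, 25.6, 23.5 and 22.6 (-0.50, SE 0.26, adjusted p = 0.84), and those of Mrps30 were 87.9, 69.4, 50.8, 118, 68.7, 29.6 and 74.3 (-0.41, SE 0.27, adjusted p = 0.91). Both overlap the control libraries.

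In the double mutant most of the 76 genes lay below control, each by a small step. Against control 26 of 29 small-subunit genes and 33 of 47 large-subunit genes were lower, with medians of -0.28 and -0.14, next to -0.01 over all tested genes. All 16 small-subunit genes with a bacterial counterpart were lower (between -0.48 and -0.03). The SD of a library's small-subunit median, after genotype and style were fitted, was 0.24, and that of the large subunit 0.21. This is the spread of single libraries, not the error of a difference between groups, and no test over the list was made. None of the 76 passed (background 0.00825%), and 4 had an unadjusted p under 0.05 at a background of 6.17%, all of them lower. Under 17 alternative settings and with each of 26 libraries left out, both medians stayed below 0. The large-subunit median ran from -0.22 to -0.07 with 1 library left out, the latter without double-mutant replicate 2, and the small-subunit median from -0.36 to -0.23.

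Of these genes Mrps18c had the smallest p. Its RPKM was 333.7 to 492.5 in control (median 406.3) and 208.2 to 360.9 in the double mutant (median 335.4), and the groups overlapped (-0.48, SE 0.18, limma adjusted p = 0.68). Mrps16 RPKM in the 5 controls was 265.1, 197.6, 282.4, 228 and 242.8, and double-mutant libraries were at 177.7, 107.9, 206.2, 169.3, 190.2, 193.1 and 240.1. Only 2 of 7 double-mutant libraries were above the lowest control, at a difference of -0.44 (SE 0.20, adjusted p = 0.76). Mrps17, named as the third small-subunit gene with an unadjusted p under 0.05, was at -0.39 (adjusted p = 0.81). In the large subunit Mrpl53 was at 70.7 ± 22.2 in the double mutant and 100.2 ± 18.7 in control (-0.52, SE 0.23, adjusted p = 0.76), and Mrpl42 at 325.9 ± 50.4 against 418.4 ± 107.1 (-0.32, SE 0.18, adjusted p = 0.88). Mrps30 in the double mutant was at 108.6, 100.5, 50.4, 91.6, 71.9, 98.1 and 89.2 (-0.44, SE 0.25, adjusted p = 0.88), and Mrpl15 at 31.1, 18.5, 28.4, 27.03, 22.6, 28.1 and 23.2 (-0.32, SE 0.24, adjusted p = 0.93).

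**Figure D3:**
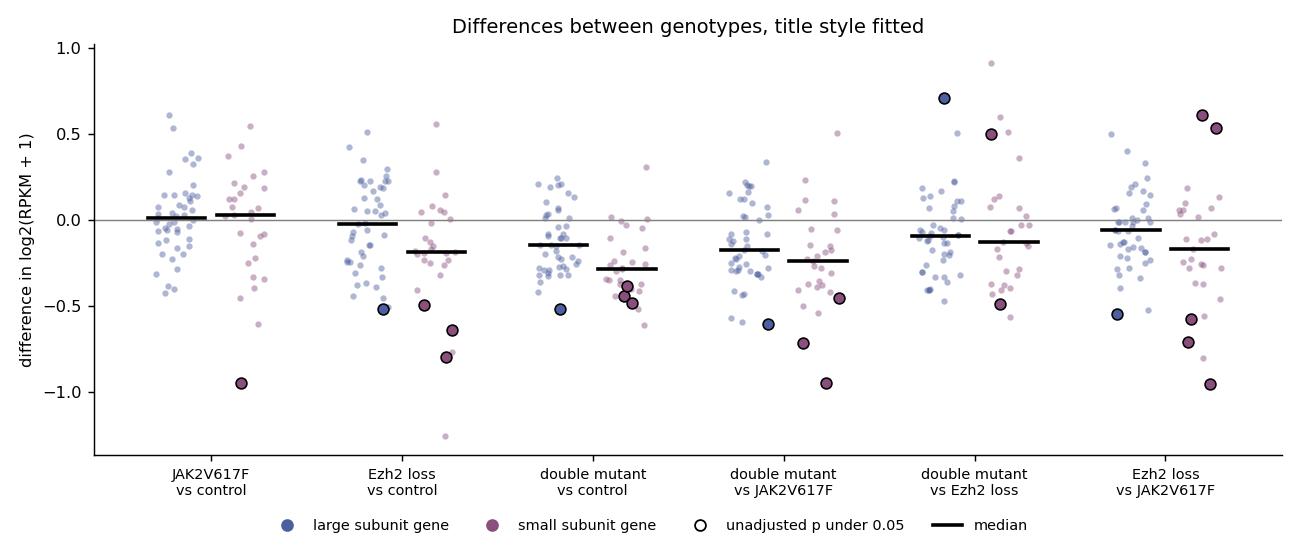
Difference in log2(RPKM + 1) of each gene in the 6 pairwise comparisons, with title style fitted; points are genes, black lines are medians by subunit, and ringed points have an unadjusted p under 0.05. The small-subunit medians lie at -0.18 for Ezh2 loss and -0.28 for the double mutant against control, and 0 of 76 genes passed after adjustment in any comparison.

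Set against JAK2V617F, the double mutant showed the same lean. Here 23 of 29 small-subunit and 33 of 47 large-subunit genes were lower, with medians of -0.24 and -0.17, next to 0.01 over all genes. Without JAK2V617F replicate 1 the large-subunit median was -0.09. This comparison and that with control share the double-mutant libraries and are not independent. None of the 76 passed (background 0.033%), and 4 had an unadjusted p under 0.05 at a background of 8.06%. Mrps16 was at 332.8, 335.2, 263.6, 311.3, 190.7, 329.3 and 277.7 in JAK2V617F, so that 6 of 7 libraries were above every double-mutant library (-0.72, SE 0.21, limma adjusted p = 0.30). Without the title style term its limma adjusted p was 0.0389, the only call among the 76 for this comparison in that fit. That fit called 274 of the 12116 tested genes, in place of 4. Over 42 alternative fits the limma adjusted p of Mrps16 ran from 0.0389 to 0.84. Mrps25, a mitochondria-specific small-subunit gene, was at 13.1 ± 2.69 against 20.4 ± 4.25 (-0.95, SE 0.35, adjusted p = 0.42), and its exons overlap 3533 bases of Nr2c2 on the other strand, itself at 3.82 ± 2.72 and 1.35 ± 0.71. Mrpl13 was at 179.3 ± 26.7 against 222.4 ± 73.1 (-0.61, SE 0.23, adjusted p = 0.46) and Mrpl52 at 291.2 ± 77.2 against 265 ± 87.3 (-0.43, SE 0.22, adjusted p = 0.63). For Mrpl52 the plain means run the other way, and its difference turned to 0.14 without the style term. Mrps30 went against the lean, at 0.51 (SE 0.28, adjusted p = 0.68), and Mrpl15 was at -0.21 (SE 0.27, adjusted p = 0.91).

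Against Ezh2 loss most genes were lower in the double mutant. The same double-mutant libraries are used here as against control and JAK2V617F, so these comparisons are not independent. The medians were -0.09 over the large and -0.13 over the small subunit, with 32 of 47 and 19 of 29 genes lower. With 1 library left out they ran from -0.16 to -0.04 and from -0.17 to -0.05, both nearest to 0 without double-mutant replicate 2. None passed (background 0%), and 3 of the 76 had an unadjusted p under 0.05 against a background of 7.84%, of which 2 were higher. Mrpl49 was higher by 0.71 (SE 0.23, limma adjusted p = 0.39) and Mrps34 by 0.50 (SE 0.20, adjusted p = 0.51), while Mrps16 was lower by -0.49 (SE 0.21, adjusted p = 0.60) and Mrpl13 by -0.47 (SE 0.23, adjusted p = 0.65). Within number-first titles Mrpl49 was at 29.7 and 39.7 in Ezh2 loss and 52.3 to 88.6 in the double mutant. Over whole groups none of the 76 genes separated Ezh2 loss from the double mutant, as 0.578% of tested genes did. Mrps30 was at -0.03 (SE 0.28), a difference whose sign depended on the settings. Mrpl15 was at 0.19 (SE 0.27).

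Ezh2 loss and JAK2V617F, the single mutants, are the pair with the most balanced title styles, 2 number-first and 5 number-last libraries each. The medians were -0.17 over the small and -0.06 over the large subunit, lower in Ezh2 loss. Without Ezh2 loss replicate 5 they were -0.08 and -0.003. Of the 76 genes 6 had an unadjusted p under 0.05, 4 lower and 2 higher, against a background of 8.27%, and 0 passed, against 0.099% of all genes. Mrps34, which encodes a mitochondria-specific small-subunit protein, came closest. Its RPKM was 167.7, 132.1, 121, 170.4, 174.1, 155.3 and 189.3 in JAK2V617F and 125.4, 112.4, 62.9, 69.8, 94.1, 96.7 and 130.1 in Ezh2 loss. The groups overlapped, with 2 Ezh2 loss libraries above the lowest JAK2V617F library, and none of the 76 genes separated them, as 0.116% of tested genes did. Within styles JAK2V617F and Ezh2 loss were at 121 and 167.7 against 62.9 and 69.8 with number-first titles, and at 132.1 to 189.3 against 94.1 to 130.1 with number-last titles. The difference was -0.71 (SE 0.16) with a limma adjusted p of 0.094. Leaving out JAK2V617F replicate 2 brought it to 0.046, which is the 1 call among the 26 fits without 1 library, and over all 45 alternative fits the adjusted p ran from 0.046 to 0.85.

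Mrps34 also had the largest F over the 4 groups among the 76 (6.78, adjusted p = 0.28), followed by Mrps30 (4.45, adjusted p = 0.47), Mrpl49 (4.19, adjusted p = 0.50) and Mrps16 (3.96, adjusted p = 0.51); in the large subunit Mrpl42 came next (2.35). Exons of Mrps34 (chr17:24895116-24897502) overlap 971 bases of Mapk8ip3 on the other strand and 289 bases of Nme3 on the same strand. Mapk8ip3 was at 4.58 ± 2.86 RPKM in JAK2V617F and 3.48 ± 4.16 in Ezh2 loss, and Nme3 at 82.8 ± 22.1 and 80.5 ± 18.5. Of the other genes in this comparison, Mrps2 was at 16.1 ± 9.67 in Ezh2 loss and 30.6 ± 13.4 in JAK2V617F (-0.95, SE 0.36, adjusted p = 0.46), and Mrpl49 at 65.8 ± 29.4 against 90.2 ± 21.03 (-0.55, SE 0.19, adjusted p = 0.42). Higher in Ezh2 loss were Mrps30 (0.54, SE 0.23, adjusted p = 0.52), Mrps35 (103.8 ± 26.9 against 68.1 ± 19.96, 0.61, adjusted p = 0.50) and Mrpl4 (115.7 ± 34.5 against 90.1 ± 37.2, 0.40, SE 0.20, adjusted p = 0.61). Mrpl15 was at -0.39 (SE 0.22, adjusted p = 0.66).

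**Figure D4:**
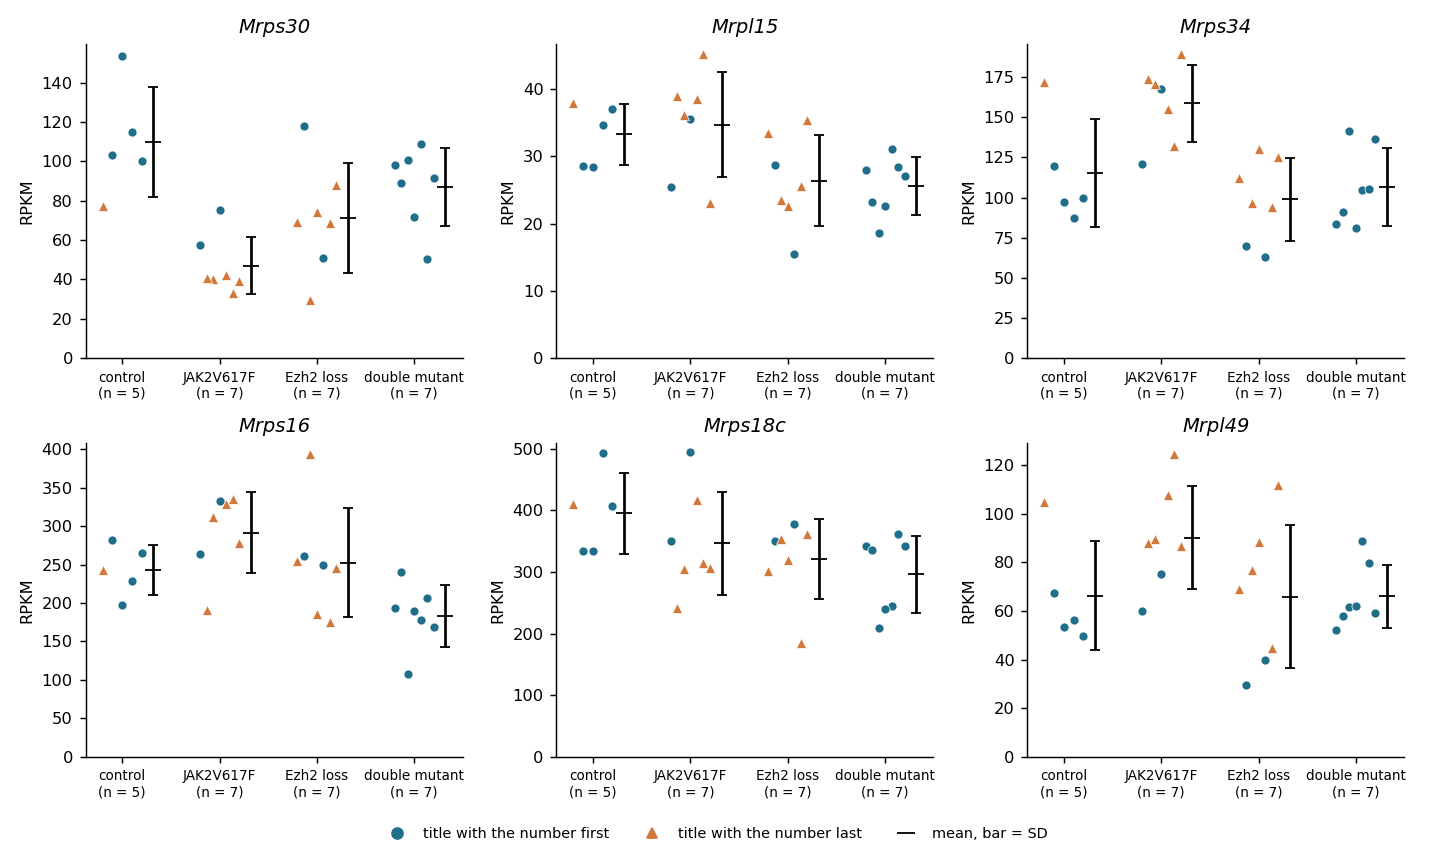
RPKM of 6 genes in each library by genotype; circles have number-first and triangles number-last titles, and bars show mean and SD. Mrps30 in JAK2V617F (33.0 to 75.2) lies below all control libraries (77.3 to 153.5). By plain means, without title style fitted, Mrps34 is highest in JAK2V617F (158.6 ± 24.2) and Mrps16 lowest in the double mutant (183.5 ± 40.4). Within number-last titles Mrps34 has a mean of 164.2 in JAK2V617F and is at 171.7 in the 1 control. Within number-first titles its means are 144.4 and 101. With style fitted its difference between JAK2V617F and control is 0.21 (SE 0.19).

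The interaction asks whether the double mutant departs from the sum of the single-mutant differences. None of the 76 passed (background 0%), and 3 had an unadjusted p under 0.05 at a background of 6.09%. Mrps30 was at 0.92 (SE 0.43, limma adjusted p = 0.79): the single mutants lay at -0.95 and -0.41 and the double mutant at -0.44 against control. Mrpl13 (-0.86, SE 0.37) and Mrps16 (-0.77, SE 0.33) were at an adjusted p of 0.79 each, Mrpl49 was at 0.68 (SE 0.36, adjusted p = 0.83) and Mrpl15 at 0.30 (SE 0.42, adjusted p = 0.95). Without the title style term 2 of the 76 were called, Mrps30 (adjusted p = 0.0246, and between that and 0.9997 over 41 alternative fits) and Mrpl23, the gene with the largest difference between styles. In that fit 215 genes of the whole table were called, in place of 0.

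The genes that work with the ribosome gave no call between genotypes either. Among the mitoribosome proteins with other symbols 0 of 7 passed, and Chchd1 had the smallest p in the F test (adjusted p = 0.40, limma), with 180.2 ± 48.2 RPKM in the double mutant, where Ezh2 loss had 260.8 ± 75.7, JAK2V617F had 212.7 ± 46.5 and the control had 249 ± 28.8. Ict1, a release factor built into the large subunit, was next (adjusted p = 0.90). None of the 12 translation factors passed, led by Mtif2, the initiation factor (adjusted p = 0.57), which was at 12.98 ± 2.75 in the double mutant and 22.8 ± 8.19 in control, and by Mtfmt, which formylates the initiator transfer RNA (adjusted p = 0.71). Of 25 assembly and rRNA modification genes 0 passed, led by Ngrn (adjusted p = 0.56) and Mettl15 (adjusted p = 0.64). Of 11 genes for mitochondrial DNA and transcription 0 passed, led by the elongation factor Tefm (adjusted p = 0.36) and Slirp (adjusted p = 0.57). Of 20 genes for aminoacyl-tRNA synthesis 0 passed, led by Gatc (adjusted p = 0.56), itself not a synthetase gene, and Yars2 (adjusted p = 0.62). Among 14 regulators of nuclear mitochondrial genes 0 passed. Mycn (adjusted p = 0.47) was at 57.9 ± 21.05 in Ezh2 loss and 124 ± 47.5 in control. Ppargc1a, a coactivator known to raise mitochondrial biogenesis, was near the detection limit everywhere (means of 0.0056 to 1.57 RPKM, adjusted p = 0.54). These pairs are the 2 genes of smallest p in each list.

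The 2 largest differences of the module, in Mrpl23 and Mrps36, lay between title styles. With genotype fitted, 10 of 76 genes differed between number-first and number-last libraries at an adjusted p under 0.05 (limma), 5 in each direction, and 21 had an unadjusted p under 0.05. Over all tested genes 11% passed, 931 higher and 400 lower in number-first libraries, and 23.4% had an unadjusted p under 0.05, so the share of members that passed was near the background. The median was -0.14 over the large and 0.16 over the small subunit, next to 0.17 over all genes. Under quantile normalization the median of all genes moved to -0.05, and 689 genes were higher and 609 lower. With 1 library left out the medians of the 76 ran from -0.24 to -0.08 over the large subunit, at the extremes without JAK2V617F replicate 1 and without Ezh2 loss replicate 1, and from 0.08 (without Ezh2 loss replicate 5) to 0.20 over the small subunit. Number-first libraries also had more reads (a mean of 19.9 M reads against 11.8 M reads) and more genes at 1 RPKM or above (9698 to 11007 against 9223 to 10065). A fit with the number of detected genes as a covariate called 4 of the 76, 3 of them among the 10, and 500 of all tested genes. A fit without the 5 libraries of lowest total, chosen after seeing the data, called 10 of the 76, 8 of them among the 10. Over all tested genes that fit called 948 higher and 366 lower in number-first libraries.

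Mrpl23, whose protein lies near the exit of the nascent peptide, separated the styles completely. Its RPKM was 59.1 to 127 (median 99.9, n = 15) in number-first and 4.49 to 16.9 (median 11.6, n = 11) in number-last libraries, a difference of 3.003 (SE 0.23, limma adjusted p = 2.33e-11). This held within genotypes: control replicate 5 was at 12.7 and the other 4 control libraries were at 59.1 to 107.1, while JAK2V617F was at 107.7 and 108 against 9.57 to 15.5 and Ezh2 loss at 98.4 and 103 against 4.49 to 16.9. Mrps36 was next at 7.34 to 30.3 (median 17.6) against 3.39 to 8.03 (median 7.51), a difference of 1.56 (SE 0.29, adjusted p = 0.000365). Mrps5 was at 31.9 ± 7.48 and 15.3 ± 6.87 (1.12, SE 0.31, adjusted p = 0.0146). By voom on recovered reads Mrpl23 was called for title style, and Mrps36 and Mrps5 were not. The other genes higher in number-first libraries were Mrpl52 (329.3 ± 86.0 against 215.3 ± 35.3, adjusted p = 0.00173) and Mrpl4 (135.7 ± 17.8 against 89.7 ± 36.0, adjusted p = 0.0221).

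The 5 genes lower in number-first libraries differed by smaller steps than Mrpl23, Mrps36 and Mrps5. Mrpl49 was at 59.5 ± 14.8 in number-first and 90.2 ± 22.1 in number-last libraries (-0.84, SE 0.19, limma adjusted p = 0.00244), and Mrpl28 at 194.4 ± 49.4 against 338.8 ± 59.9 (-0.77, adjusted p = 0.00558). Mrps11 (-0.81), Mrps34 (-0.53) and Mrps12 (-0.50), the last encoding a protein of the decoding centre, followed at adjusted p = 0.0112, 0.0248 and 0.0398. By voom Mrps34 and Mrps12 were not called, and Mrpl49, Mrpl28 and Mrps11 were. Mrpl38 (0.70), Mrps6 (0.65) and Mrps22 (-0.69) had large differences that did not pass. The 2 genes followed throughout did not pass: Mrps30 was higher by 0.54 (SE 0.22, adjusted p = 0.12) and Mrpl15 lower by -0.29 (SE 0.21, adjusted p = 0.45) in number-first libraries.

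The 3 genes with the largest rise in number-first libraries all have near-identical copies elsewhere in the genome. Among the 76, 19 (25%) have a transcript of another locus at least 95% identical over 200 bases or more in GENCODE M21, mostly processed pseudogenes. Mrpl23 and Mrpl23-ps1 are 100% identical over 540 bases, Mrps36 and Mrps36-ps1 99.3% over 306, and Mrps5 and Gm13328 98.4% over 1019, and none of these copies has a row in the table. Of the 19 members with a copy 3 passed for title style (15.8%), all higher, and of the 57 without a copy 7 passed (12.3%), 2 higher and 5 lower. Both shares were near the 11% of all tested genes, for which copies were not looked up. The median size of the difference, whatever its sign, was 0.318 with and 0.313 without a copy. The median difference was 0.16 with and -0.13 without a copy. Other members with a close copy did not pass: Mrps18b (99.8% over 417 bases) was at 0.32 (adjusted p = 0.53), Mrpl27 (98.9% over 447) at -0.34 (adjusted p = 0.34) and Mrps33 (99.7% over 321) at 0.60 (adjusted p = 0.061). No source used here says how reads that fit both a gene and its copy were assigned, so the levels of these 19 genes are uncertain, and the part of the copies in the style difference was not tested.

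**Figure D5:**
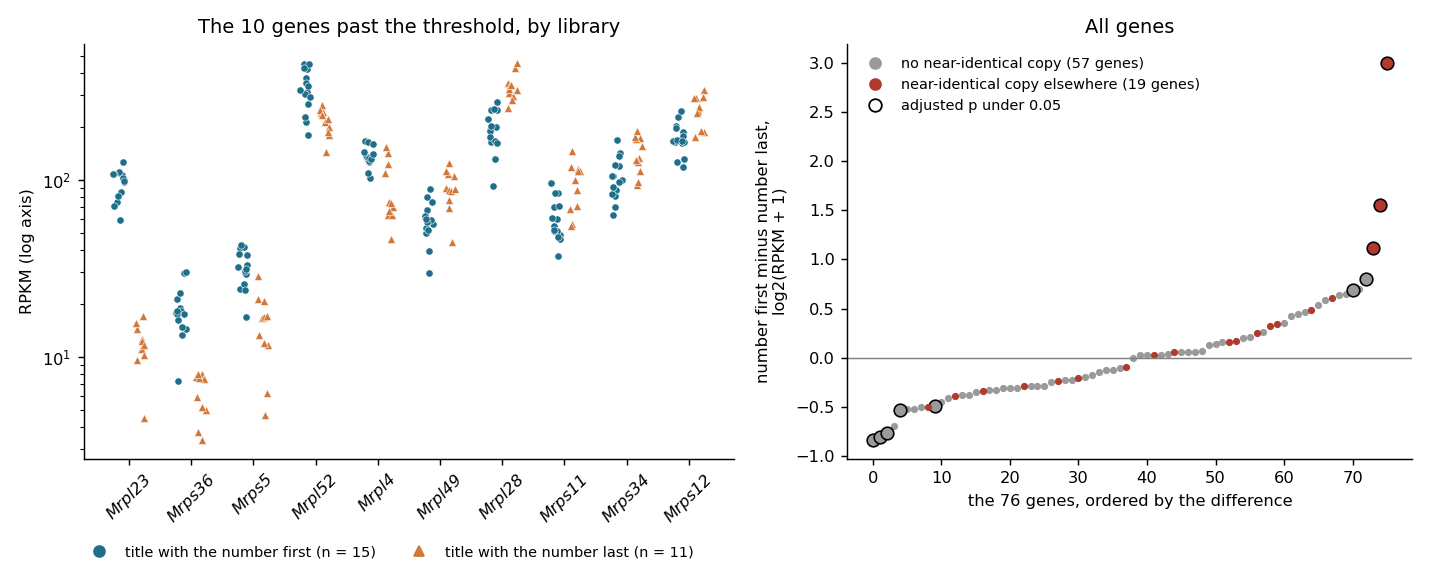
Left, RPKM on a log axis of the 10 genes past the threshold, in number-first (circles, n = 15) and number-last libraries (triangles, n = 11). Right, the difference between styles in log2(RPKM + 1) for all 76 genes in order, with the 19 that have a near-identical copy in red and genes past the threshold ringed; the 3 largest rises, up to 3.003, are among the 19.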

How the data were processed

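Values for 26 libraries were deposited by the authors as RPKM in 1 table. STAR 2.4.2a, SAMtools 0.1.19 and Subread 1.5.0 with mm10/GRCm38 are named in the submitters' processing notes, and no source used here gives settings, annotation or strand. Whole reads came back from the RPKM values for 12115 of 12116 tested genes, within 0.01 of a whole number. limma 3.58.1 (R 4.3.3; eBayes with trend and robust) was fitted to log2(RPKM + 1), a scale that compresses low values, with genotype and title style as terms. Genes passed at an adjusted p under 0.05. The members and gene lists were chosen with earlier results of these data known. Mrps30 and Mrpl15 are always named, and otherwise genes that passed, or else the 2 of smallest p per subunit; the 3 highest and 3 lowest per subunit; the largest style differences; and the 2 of smallest p in each other list. The script was tested on simulated data. Copies were found with blastn 2.17.0. Python 3.11.15 and pandas 2.3.3 were used. Each library kept 1 group and 1 title style from its labels.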

Additional observations from a re-analysis of the deposited data

Results flagged for a closer look

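In groups of 5 or 7 libraries, a value that stood apart from the rest of its group was looked for in 11 genes given by group, in the share of reads on the 76 genes and in the summed level of each subunit. Chance flags about 1 in 20 groups, which is 2.8 of the 56 groups looked at, and 3 stood apart. Mrpl13 was at 386.5 RPKM in JAK2V617F replicate 1, where the other 6 libraries were at 182.8 to 211.4. Mrps16 was at 394.1 in Ezh2 loss replicate 6, with the other 6 at 175.5 to 261. Mrps18c was at 184.4 in Ezh2 loss replicate 5, with the other 6 at 301.9 to 377.9.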

How the results depend on the processing

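The 20 alternatives and 26 fits without 1 library called 0 of the 76 genes in each genotype comparison they could be fitted to, with 3 exceptions. Without the title style term 1 gene was called for the double mutant against JAK2V617F and 2 for the interaction, beside 274 and 215 over all tested genes. Leaving out 1 library gave 0 to 1 calls for Ezh2 loss against JAK2V617F. For title style 4 genes were called with the number of detected genes as a covariate and 6 by voom, in place of 10, and 7 to 12 with 1 library left out. Over all tested genes the covariate fit called 500, and voom 808 higher and 375 lower. The fits without 1 library called 988 to 1375. The median of the large subunit for Ezh2 loss against control was -0.248 in number-last libraries only, which hold 1 control, and the cause was not tested.

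Some differences changed sign, none of them past the threshold. Without the style term Mrpl15 was at 0.037 for JAK2V617F against control, -0.021 for the double mutant against Ezh2 loss and -0.058 for the interaction, Mrpl52 was at 0.144 for the double mutant against JAK2V617F, and Mrpl49 at -0.347 for the interaction. Without the 5 libraries of lowest total, chosen after seeing the data, Mrpl15 was at 0.002 for JAK2V617F against control. For the double mutant against Ezh2 loss Mrps30 was at 0.048 with TPM scaling, 0.354 without the style term, 0.129 in number-first libraries only and with only the groups compared, and 0.061 without those 5 libraries; leaving out 1 library gave -0.329 to 0.142, and -0.003 to 0.330 for Mrpl15.

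Counts over all genes depended on the style term: the double mutant against JAK2V617F gave 4 calls with it and 274 without, and the interaction 0 and 215. The double mutant against Ezh2 loss gave 0 and 85, and the F test 12 and 87. In number-last libraries only, each single mutant against control gave 22 calls in place of 0, and the double mutant against control gave 6 with array weights in place of 1. Title style gave 1331 calls, and 500 with the covariate for detected genes. All but 1 of the 1976 values of the 76 genes rest on at least 10 reads. The split of title style calls among the 76 was 5 higher and 5 lower, 4 and 6 with median-ratio scaling, and 5 and 7 with TPM scaling.

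In number-last titles 4 libraries each of JAK2V617F and Ezh2 loss share a title number. Their deviations over all tested genes correlated at -0.057 to 0.023, and only for number 3 was the best match the same number. Such correlations cannot show whether libraries of the same number belong together, and the labels do not say. With the replicate block 0 of the 76 were called, and 1 gene over all, against 5 without the block.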
